A study of Mus musculus with 23 samples.

Results

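Kiss1, Tac2, Pdyn, Tac1 and the receptor genes Tacr3, Kiss1r, Oprk1 and Tacr1 were followed in 23 single-neuron RNA-seq libraries from the mouse arcuate hypothalamus. These 8 genes, taken by symbol from the 23373 genes of the authors' table, encode the peptides of KNDy neurons (kisspeptin, neurokinin B, dynorphin), the related tachykinin precursor and their receptors. Each library came from 1 GFP-positive cell of young adult male vGLUT2-IRES-Cre::loxSTOPlox-L10-GFP mice on a mixed background. All cells share this genotype, and none was treated. The reporter is switched on by Cre under Slc17a6, the VGLUT2 gene, so cells that never used Slc17a6 were outside the sample. The design names 2 mice and ties no cell to either. The cells therefore form 1 group without biological replicates, and every comparison between cells is a description without a test. Cells are numbered 1 to 23 in record order. Titles of cells 1 to 15 share one prefix (set 1, 15 cells) and those of cells 16 to 23 another (set 2, 8 cells), which the labels do not explain.

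Kisspeptin, from the Kiss1 precursor, excites the neurons that release gonadotropin-releasing hormone, which carry its receptor Kiss1r. Arcuate kisspeptin neurons also make neurokinin B from Tac2, which excites neighbouring KNDy cells through the neurokinin 3 receptor Tacr3, and dynorphin from Pdyn, which inhibits through the kappa opioid receptor Oprk1. This push and pull is known for pacing pulses of gonadotropin secretion. Tac1 encodes substance P and neurokinin A, and Tacr1 the neurokinin 1 receptor, which prefers substance P.

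The mature peptides are short stretches of longer precursors, and their coding sequences are shown because they separate genes with related products. They were read from GENCODE transcripts on GRCm38 (mm10), 5′ to 3′ on the coding strand. For Kiss1 the stretch encodes the C-terminal 10 residues of kisspeptin, with the codons of the amidated end in capitals. For Tac2 (neurokinin B) and Tac1 (substance P), capitals mark the codons of the C-terminal motif shared by tachykinins. For Pdyn, capitals mark the opioid core, which occurred 3 times in the precursor of 248 residues.
Kiss1 (chr1:133329580-133329609, exon 3): tacaactggaactccTTCGGCCTGCGCTAC
Tac2 (chr10:127729116-127729145, exon 5): gacatgcacgacttcTTTGTGGGACTTATG
Tac1 (chr6:7556732-7556764, exon 3): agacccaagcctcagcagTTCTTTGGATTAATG
Pdyn, core 1 (chr2:129688229-129688252, minus strand, exon 4): TATGGCGGCTTTTTGcgcaaatac
Pdyn, core 2 (chr2:129688121-129688144, minus strand, exon 4): TATGGGGGCTTCCTGcggcgcatt
Pdyn, core 3 (chr2:129688064-129688087, minus strand, exon 4): TATGGTGGTTTCCTGcggcgtcag
The tachykinin motifs of Tac2 and Tac1 had 10 of 15 bases in common, and pairs of Pdyn cores had 11 to 13 of 15. The authors' Pdyn locus (chr2:129688001-129689868) covers these cores but is 1868 bp long, against 13280 bp for the GENCODE gene. Pdyn FPKM (mapped fragments scaled by transcript length and library size) thus refers to that short model, and its level relative to Kiss1 or Tac2 depends on it. Kiss1 (chr1:133327212-133329722) lies on the plus strand inside a longer GENCODE model, Gm28040, that the table does not list. This Kiss1 locus is 2511 bp long, against 8027 bp for the GENCODE Kiss1 gene (chr1:133321875-133329901). Kiss1 FPKM and its ratios to other genes thus also refer to a shorter model. Tac2 (chr10:127724478-127731768), Tac1 (chr6:7555071-7562973), Tacr3 (chr3:134829007-134934581), Oprk1 (chr1:5588493-5606133) and Tacr1 (chr6:82402475-82560104) are plus-strand, protein-coding genes that overlap no other GENCODE gene. Kiss1r (chr10:79916971-79922272, plus strand) overlaps the GENCODE model of R3hdm4 on the minus strand over 4238 bp; the labels do not state a stranded kit, so reads of both could not be told apart there. In the table the loci of this pair are separate.

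Kiss1 split the cells sharply. It was at 1485, 1078, 978, 2963 and 895 FPKM in cells 8, 17, 19, 20 and 23, and had a lowest value of 0.442, a median of 2.36 and a highest value of 62.5 FPKM in the other 18 cells. A threshold of 500 FPKM, given by the definition of the Kiss1-high cells, lies in this gap: cell 23, just inside, was 14.3-fold above cell 21, just outside. Cell 8 belongs to set 1 and the remaining 4 Kiss1-high cells to set 2. Since Kiss1 chose these cells, its difference is a description. Of the KNDy markers not used to choose them, Tac2 reached 1 FPKM in 5 of 5 Kiss1-high cells and 6 of the 18 other cells, Pdyn in 5 and 18, Tacr3 in 4 and 1, Esr1 in 4 and 6, Pgr in 3 and 11, and Nr5a2 in 3 and 2. Each was thus found in some other cells too, and Pdyn was found in all of them.

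**Figure D1:**
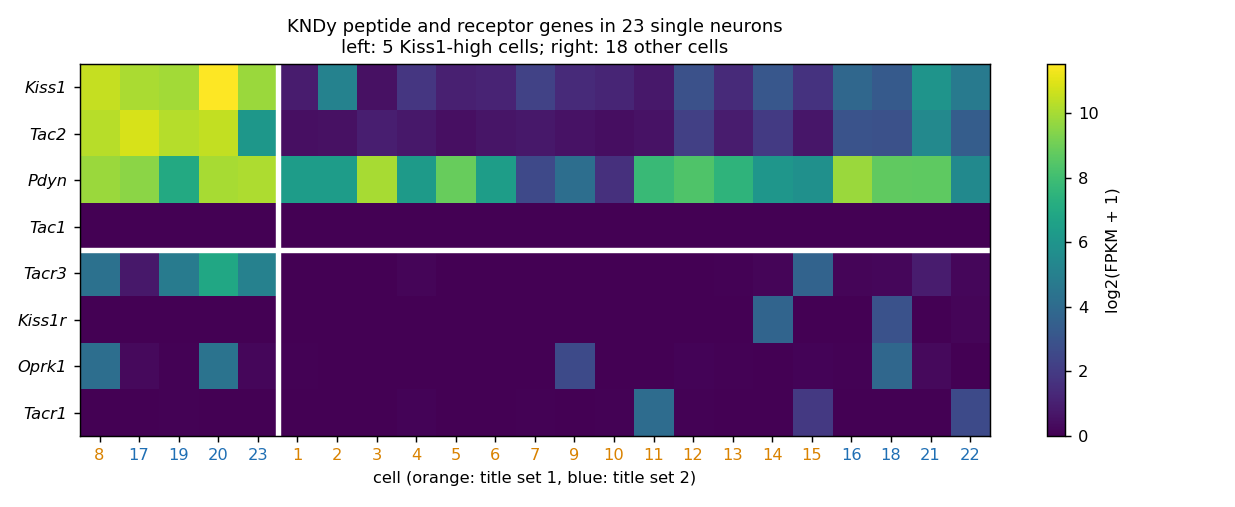
Level of the 8 genes (rows, log2(FPKM + 1), colour) in each of the 23 cells (columns), with the 5 Kiss1-high cells on the left and the 18 other cells on the right. Kiss1 and Tac2 are bright in the 5 left columns, Pdyn is spread over both sides, and Tac1 is listed at 0 in every cell.

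The libraries differed in features that bear on these cells. Relative sequencing depth, estimated from how low FPKM values are spaced, had a median of 1.43 (range 0.933 to 2.46) in Kiss1-high cells and 1.42 (0.590 to 1.95) in the other cells, in units of cell 12. Yet fewer genes reached 1 FPKM in Kiss1-high cells, 4049 to 6698, than in most of the other cells, with 6393 to 8025; cell 17 had the fewest. The mice were labelled male, but 4 Y-linked genes (Uty, Kdm5d, Ddx3y and Eif2s3y) summed to 0.267 FPKM in cell 20 and to 0.198 FPKM in cell 23, against 7.22 to 110.1 FPKM in the other 21 cells. Xist, which silences an inactive X chromosome, measured 0.596 FPKM in the first and 2.69 FPKM in the second of these cells; it was also at 4.64 FPKM in cell 19, and at 5.26, 2.79 and 2.51 FPKM in cells 13, 11 and 3, which had Y-linked transcripts. Counts of cells and genes, median differences and correlations are also given without cells 20 and 23, an alternative added with the values known. Of the markers of other cell types, 0 of 5 for astrocytes, 3 of 4 for oligodendrocytes, 1 of 4 for microglia, 1 of 3 for endothelial cells, 2 of 4 for tanycytes and 4 of 4 for red blood cells reached 1 FPKM in some Kiss1-high cell; Mog, Cldn5 and Rax were listed at 0 in all 23 cells. Summed astrocyte markers were at most 1.36 FPKM in Kiss1-high cells and 166 FPKM in the other cells, oligodendrocyte markers at most 54.6 and 39.7 FPKM, and red blood cell markers 44.2 to 2395 and 3.45 to 622 FPKM. Cell 23 had Mbp at 41.3 and Mag at 13.0 FPKM, and cell 19 had Vim at 53.9, Pecam1 at 13.6 and the haemoglobin gene Hba-a2 at 1594 FPKM. Oxt, Avp, Sim1 and Otp were taken as markers of magnocellular neurons, which lie outside the arcuate nucleus. Otp was also taken as a marker of AgRP neurons. Summed levels of the 4 genes ran from 0 to 3982 FPKM in Kiss1-high cells and from 0 to 8200 FPKM in the other cells. The sum in Kiss1-high cells was nearly all Oxt and Avp, as Otp was listed at 0 there and Sim1 was at most 0.0218 FPKM. Among Kiss1-high cells, Oxt and Avp came from the 4 cells of set 2 (Oxt at 322 to 1432 FPKM), and cell 8 was listed at 0 for both. The part of these features in the results below was not tested.

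Tac2 followed Kiss1 in 4 of the 5 Kiss1-high cells. The neurokinin B precursor stood at 1245, 1814, 1206, 1421 and 67.0 FPKM in cells 8, 17, 19, 20 and 23, and between 0.365 and 42.7 FPKM (median 0.673) in the other 18 cells. The groups did not overlap, but cell 23 was 18-fold below the next Kiss1-high cell and only 1.57-fold above cell 21. Of 11593 genes at 1 FPKM in at least 3 cells and with loci of at least 300 bp, 4 (0.0345%) were higher in every Kiss1-high cell than in any other cell: Kiss1, Tac2, the transcription cofactor gene Vgll3 and Cramp1l. Median log2(FPKM + 1) of Tac2 was 10.28 in Kiss1-high cells and 0.74 in the other cells, a difference of 9.54. Without cells 20 and 23, the remaining 3 Kiss1-high cells still had Tac2 at 1206 FPKM or more, and 32 genes were then separated in this way. Within set 2 alone, 73 genes (0.63%) were separated above and 356 (3.07%) below, and without cell 23 7 genes (0.0604%) above. Without cells 20 and 23 the median difference was 9.54 for Tac2, 3.12 for Pdyn and 4.29 for Tacr3, beside 9.54, 3.41 and 4.81 with them.

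The balance of both peptides varied between Kiss1-high cells. The ratio of Tac2 to Kiss1 FPKM was 0.839, 1.68, 1.23, 0.479 and 0.0749 in cells 8, 17, 19, 20 and 23. Tac2 thus exceeded Kiss1 in cells 17 and 19, whereas cell 23 was nearly all Kiss1. Cell 2 of set 1 was the clearest case of Kiss1 with little Tac2 among the other cells, with 33.3 FPKM of Kiss1 and 0.445 FPKM of Tac2, a ratio of 0.0134. Cell 21 had 62.5 and 42.7 FPKM, a ratio of 0.683.

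**Figure D2:**
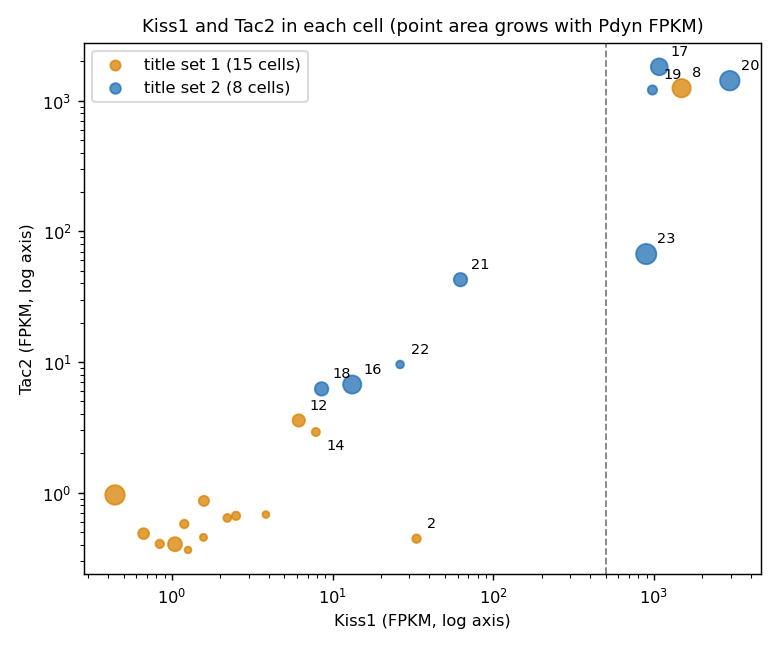
Kiss1 against Tac2 in each of the 23 cells (FPKM, both axes logarithmic), coloured by title set, with point area growing with Pdyn FPKM; the dashed line marks 500 FPKM of Kiss1. Cells 8, 17, 19 and 20 lie at the top right, cell 23 has high Kiss1 and 67.0 FPKM of Tac2, and cell 2 has 33.3 FPKM of Kiss1 with 0.445 FPKM of Tac2.

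Pdyn, the dynorphin precursor, was not restricted to these cells. It was at 894, 730.1, 128, 1029 and 1117 FPKM in cells 8, 17, 19, 20 and 23. In the other 18 cells its lowest value was 2.03, its median 83.2 and its highest 1031 FPKM, in cell 3, and cell 16 had 878 FPKM. The groups overlapped widely, and Pdyn reached 1 FPKM in all 23 cells (100%, exact Clopper-Pearson 95% interval 85.2 to 100%; all intervals cover counting error only). The difference of median log2(FPKM + 1), Kiss1-high minus other cells, was 3.41; a difference over 1 in this direction was found for 7.55% of the 11593 genes. Within set 2 it was 1.06; the other cells of that set included cells 16, 18 and 21, with 878, 421 and 412 FPKM. Cell 19 stood out among Kiss1-high cells with a Pdyn to Kiss1 ratio of 0.131, against 0.347 to 1.25 in the other 4.

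Of the tachykinin pair, Tac1 was listed at 0 in all 23 cells, where counting allows a share of cells of up to 14.8%. Neurokinin B was therefore the one tachykinin precursor found at 1 FPKM in Kiss1-high cells, as Tac4, which encodes hemokinin, was listed at 0 in them and reached 1.052 FPKM in cell 4.

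Low values of Kiss1 and Tac2 followed the library set. At 1 FPKM, Kiss1 was counted in 20 of 23 cells (87.0%, interval 66.4 to 97.2%) and Tac2 in 11 (47.8%, 26.8 to 69.4%). Scaled to a common depth, the low values of Kiss1 fell on whole multiples of one step: 13 of 13 values of at most 20 steps lay within 0.1 step of a whole number. The same held for 8 of 8 such values of Tacr3, 9 of 9 of Oprk1 and 11 of 11 of Tacr1. For Tac2 only 3 of 15 did, so no steps are given for it. A step may be 1 fragment, and was worth 0.312 to 1.3 FPKM of Kiss1, depending on the cell. In set 1, Kiss1 amounted to 1 to 8 steps in 13 of the 14 other cells; the exception was cell 2 with 65 steps. The 4 other cells of set 2, cells 16, 18, 21 and 22, had 33, 21, 66 and 26 steps. Kiss1-high cells had 1087 to 9505 steps.

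Kiss1 and Tac2 were low in similar proportion within a set. Each of the 13 other cells of set 1 besides cell 2 held 0.0285 to 0.508% of the set's summed Kiss1 and 0.0290 to 0.284% of its summed Tac2. In set 2 the 4 other cells held 0.142 to 1.04% of the Kiss1 and 0.136 to 0.933% of the Tac2. Cell 2 departed from this, with 2.15% of the Kiss1 of set 1 and 0.0354% of its Tac2. Whether the low values belong to the cells or to their library set was not tested. With a floor set at 5% of each gene's maximum, an alternative added once the values were known, Kiss1 was counted in 5 cells and Tac2 in 4.

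**Figure D3:**
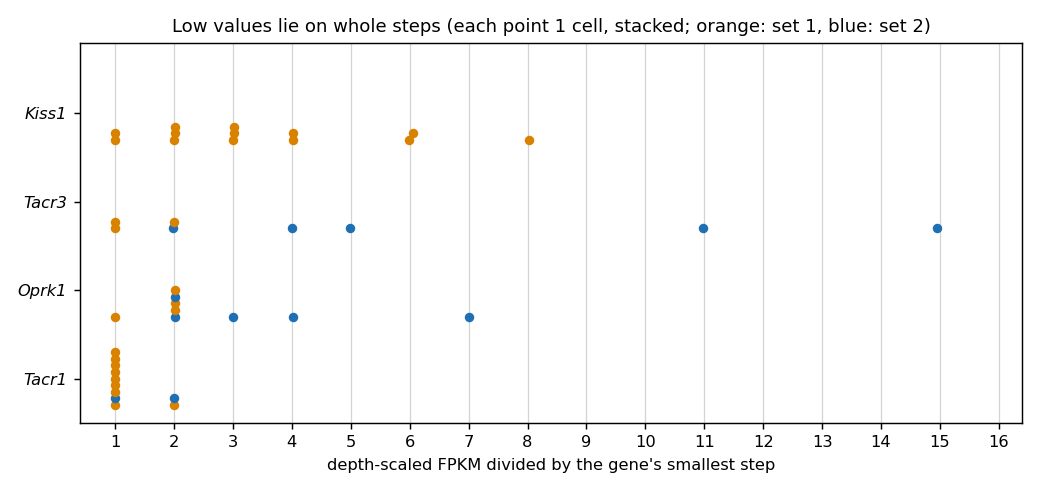
Low values of 4 genes, scaled to a common depth and divided by the gene's smallest step (x axis, steps of 1), each point 1 cell coloured by title set. All points lie on whole steps; Tacr3 in cells 21 and 17 of set 2 is at 11 and 15 steps, and most Tacr1 values are single steps in set 1.

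Tacr3, the neurokinin 3 receptor, was found mainly in Kiss1-high cells. It was at 18.5, 0.658, 27.0, 116 and 32.9 FPKM in cells 8, 17, 19, 20 and 23. In the other 18 cells it was listed at 0 in 10, at 0.854 FPKM or less in 7, and at 11.6 FPKM in cell 15. It thus reached 1 FPKM in 4 of 5 Kiss1-high cells (80%, interval 28.4 to 99.5%) and in 1 of 18 other cells (5.56%, 0.141 to 27.3%). The exceptions were cell 17, where Tac2 was highest of all cells while Tacr3 was at 15 steps, and cell 15, which had 256 steps of Tacr3 with 0.641 FPKM of Tac2. Cell 15 carried the peptides of other arcuate types, with 29792 FPKM of Sst and 2659.6 FPKM of Npy. Cell 17 alone kept the groups from separating: the remaining 4 Kiss1-high cells had 18.5 FPKM or more. Leaving it out, a choice made with its low Tacr3 known, fixes that outcome and supports nothing; 11 genes (0.0949%) were then separated above. Without cells 20 and 23, Tacr3 was counted in 2 of 3 Kiss1-high cells and 1 of 18 other cells.

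Oprk1, the kappa opioid receptor, was found in some cells of both kinds. It was at 17.1, 0.226, 0.0519, 20.05 and 0.149 FPKM in cells 8, 17, 19, 20 and 23. In the other 18 cells it was listed at 0 in 10, and it reached 1 FPKM in cell 18 (13.4 FPKM) and cell 9 (4.95 FPKM). The groups overlapped. It was counted in 2 of 5 Kiss1-high cells (40%, interval 5.27 to 85.3%) and 2 of 18 other cells (11.1%, 1.38 to 34.7%), intervals that overlap widely, and without cells 20 and 23 in 1 of 3 and 2 of 18. Below 1 FPKM its values were 7 steps or fewer.

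Kiss1r, the kisspeptin receptor, was not found where its ligand was high. It was listed at 0 in all 5 Kiss1-high cells, which allows a share of up to 52.2%, and reached 1 FPKM in 2 of the 18 other cells, cells 14 and 18, with 12.0 and 6.46 FPKM. The third value above 0 was 0.0998 FPKM in cell 22. R3hdm4, whose GENCODE model overlaps Kiss1r, had 28.4 and 43.8 FPKM in these cells.

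Tacr1, the receptor for substance P, was likewise absent at 1 FPKM from Kiss1-high cells. Its highest value there was 0.0499 FPKM in cell 19, or 2 steps. In the other 18 cells it reached 15.8 FPKM in cell 11, 5.03 FPKM in cell 22 and 2.78 FPKM in cell 15, and was at 2 steps or fewer in the remaining 15. Its ligand precursor Tac1 was listed at 0 in these cells too.

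**Figure D4:**
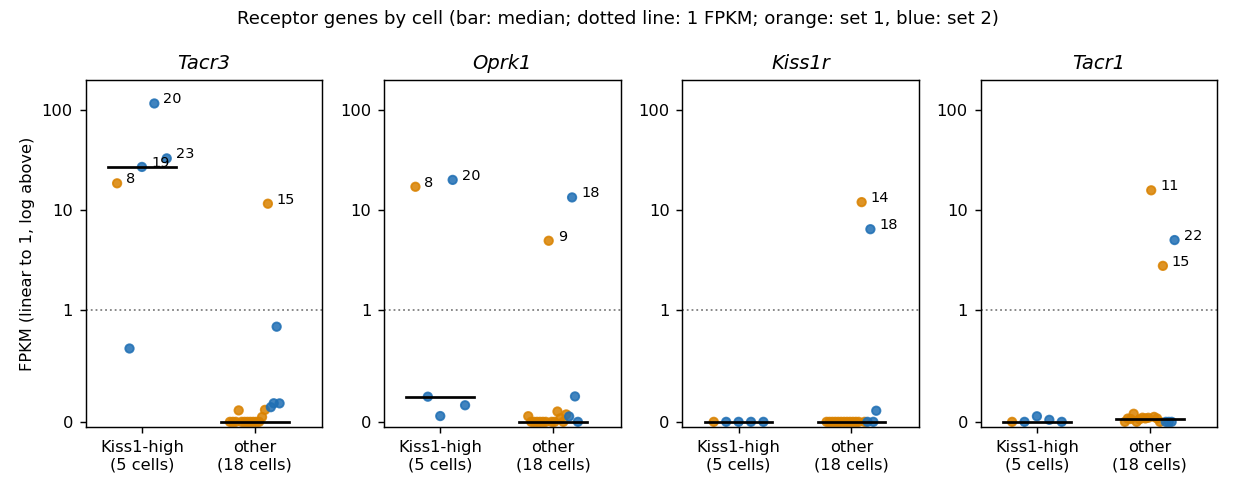
Tacr3, Oprk1, Kiss1r and Tacr1 (FPKM, linear up to 1 and logarithmic above) in the 5 Kiss1-high cells, left in each panel, and the 18 other cells, right; points are cells coloured by title set, bars are medians and numbers name cells at 1 FPKM or more. Tacr3 is at 18.5 FPKM or more in 4 Kiss1-high cells, and Kiss1r and Tacr1 reach 1 FPKM only in other cells.

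Counted together, 13 of the 23 cells had none of the 4 receptors at 1 FPKM, 6 had 1 and 4 had 2, and no cell had more. Tacr3 and Oprk1 met in cells 8 and 20, Kiss1r and Oprk1 in cell 18, and Tacr3 and Tacr1 in cell 15. Ligand and receptor in the same cell were found for Tac2 with Tacr3 in 4 cells (17.4%, interval 4.95 to 38.8%), all of them Kiss1-high, and in 2 cells without cells 20 and 23. Pdyn with Oprk1 was also found in 4 cells (8, 9, 18 and 20), which is every Oprk1 cell because Pdyn was everywhere. Kiss1 with Kiss1r met in cells 14 and 18, where Kiss1 was at 7.86 and 8.54 FPKM, or 6 and 21 steps. Cells 8 and 20 were the 2 cells with both Tacr3 and Oprk1, and had all 3 KNDy peptide genes at 894 FPKM or more.

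Across the 23 cells, Tac2 was the gene most like Kiss1, and Tacr3 followed at rank 5. Pearson's r of log2(FPKM + 1) with Kiss1 was 0.95 for Tac2, 0.77 for Tacr3, 0.48 for Pdyn and 0.44 for Oprk1, at ranks 1, 5, 194 and 281 among 11592 genes. After centring within each set, r was 0.91, 0.73, 0.27 and 0.40. Without cells 20 and 23, r was 0.95, 0.64, 0.35 and 0.32, at ranks 1, 31, 675 and 848, so the rank of Tacr3 rests on those cells. These values describe cells that share 2 library sets and mostly contrast 5 cells with 18. Tacr3 reached 1 FPKM in 4 Kiss1-high cells and 1 other cell, so it passed the filter of 3 cells only through Kiss1-high cells. Genes can thus enter this ranking because they are high in the chosen cells. The high r and rank of such genes are partly built in and support nothing. The 8 non-members most like Kiss1 were Vgll3 (r = 0.87), Greb1 (0.83), Acot1 (0.80), Cramp1l (0.77), E130218I03Rik (0.76), Zfp593 (0.74), Kcnh4 (0.73) and Cryl1 (0.73). Vgll3 was at 5.67 to 120.4 FPKM in Kiss1-high cells and at most 4.75 FPKM in the other cells. Greb1, known as an oestrogen-responsive gene, was at 2.05 to 4.85 FPKM in Kiss1-high cells and between 0.00451 and 2.81 FPKM in the other cells. Cryl1 was listed at 0 in cell 8, and its r was 0.49 after centring.

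Among non-members, the lists for Tac2 and Tacr3 shared genes with that of Kiss1: 3 of the 4 genes for Tac2 and 1 of the 4 for Tacr3. With Tac2, the highest r of a non-member belonged to Vgll3 (0.89), Cramp1l (0.81), Greb1 (0.81) and Treh (0.78). Treh, which encodes trehalase, reached 1 FPKM in cells 8, 17 and 19, at 7.87, 20.2 and 12.7 FPKM, and was at most 0.321 FPKM in the other 18 cells. With Tacr3 these were the potassium channel gene Kcnh4 (0.87), Fam151a (0.83), Tmem8c (0.81) and Gm5458 (0.80). Kcnh4 was at 2.83 to 12.8 FPKM in Kiss1-high cells and, in the other cells, highest at 5.09 FPKM in cell 15, the other cell with Tacr3. With Pdyn they were Mrps21 (0.80), Ctps2 (0.72), Glt8d1 (0.70) and Nop58 (0.69), and with Oprk1 Cyp2s1 (0.87), Fam222a (0.75), Ggt5 (0.75) and Ttc21b (0.74). Oprk1 values at 1 FPKM came from 4 cells, so those r rest on them. Treh, Fam151a, Gm5458 and Ggt5 each reached 1 FPKM in 3 Kiss1-high cells and 0 other cells. They thus passed the filter through Kiss1-high cells alone. Without cells 20 and 23, 3 of the 8 genes named for Kiss1 stayed among its 8 highest, as did 2 of 4 for Tac2, 1 of 4 for Pdyn, 0 of 4 for Tacr3 and 2 of 4 for Oprk1.

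**Figure D5:**
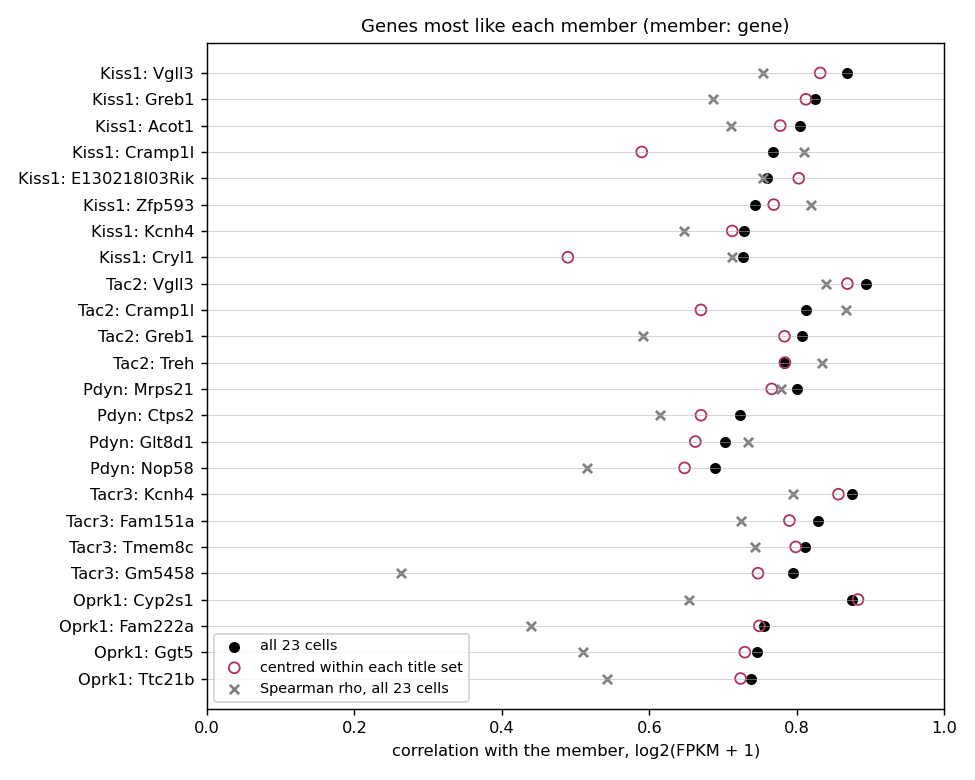
Correlation of log2(FPKM + 1) with a member (x axis, 0 to 1) for the genes most like it (rows, member: gene), over all 23 cells (black), after centring within each title set (open circles) and as Spearman rho (crosses). Vgll3 keeps values of 0.75 or more with Kiss1 and Tac2 under all 3 measures, and Gm5458 has a rho of 0.26 with Tacr3.

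The gonadal axis list, with hormone and receptor genes and transcription factors, held genes of both directions. Of its 12 genes, 10 reached 1 FPKM in some cell and 8 passed the filter; of these, the median was higher by over 1 on the log2 scale in Kiss1-high cells for 3 and lower for 1, against 7.55% and 23.3% of all 11593 genes. The list's median difference was 0.91, beside -0.10 over all genes. With cells 20 and 23 left out, the counts were again 3 and 1, beside 9.61% and 28.1% of all genes. Prlr, the prolactin receptor, reached 1 FPKM in all 5 Kiss1-high cells (1.95 to 6.62 FPKM) and in 4 of the other 18 (highest 2.63 FPKM). Nhlh2, a transcription factor, ranged from 0.283 FPKM (cell 20) to 102 FPKM (cell 19) in Kiss1-high cells, and was at most 38.0 FPKM in the other cells. Insr, the insulin receptor, was the gene with the lower median.

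Steroid receptor genes did not mark the Kiss1-high cells as a whole. Esr1, the oestrogen receptor alpha gene, was at 1.44, 0.785, 3.69, 3.502 and 1.33 FPKM in cells 8, 17, 19, 20 and 23, and at up to 2.76 FPKM in the other cells. Pgr, the progesterone receptor, was at 2.53, 0.187, 11.0, 15.5 and 0.323 FPKM there, and at up to 40.3 FPKM in the other cells. Both groups overlapped for both genes. Inhbb, an activin and inhibin subunit, reached 1 FPKM only in cells 19 and 20 (40.8 and 14.8 FPKM), and Nr5a2 did so in 3 Kiss1-high cells and 2 other cells. Prlr, Esr1, Inhbb and Nr5a2 lie outside the naming rule for this list and were chosen after their values were seen. Gnrh1 reached 1 FPKM in cells 8 and 23 (1.02 and 1.805 FPKM), and Gnrhr was listed at 0 in every cell.

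Among related peptides and receptors, 9 of 15 genes reached 1 FPKM in some cell and 6 passed the filter, 0 with a higher and 1 with a lower median, beside 7.55% and 23.3% of all genes. Oprl1, the nociceptin receptor, was found in all 5 Kiss1-high cells (38.0 to 96.6 FPKM) and 16 of the other 18. Its ligand gene Pnoc was at most 1.496 FPKM in Kiss1-high cells and 12.9 FPKM in the other cells. Oprm1, the mu opioid receptor, was at 192 FPKM in cell 17, the highest value of any cell, and at most 0.296 FPKM in the remaining Kiss1-high cells. Qrfpr was listed at 0 in all 5 Kiss1-high cells and reached 1 FPKM in 6 of the 18 other cells.

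Most genes of the peptide processing list were present in Kiss1-high and other cells alike. Of its 9 genes, 7 reached 1 FPKM in all 5 Kiss1-high cells: Pcsk2, Pcsk1n, Scg5, Cpe, Pam, Scg2 and Chgb. Pcsk2 also did so in 14 of the 18 other cells, and the rest of the 7 in all 18. The share of all genes that did so is not given, so this count is no result about the list. Furin was listed at 0 in all 5 and was at most 0.814 FPKM in the other cells. Among the 8 genes that passed the filter, 0 had a higher median and 1, Pcsk1, a lower one, beside 7.55% and 23.3% of all genes. Pcsk1 was at 6.06, 1.82, 0.544, 141 and 0.831 FPKM in cells 8, 17, 19, 20 and 23 and at up to 76.5 FPKM in the other cells. Pcsk1 and Furin lie outside the naming rule for this list, and Pcsk1 is given for its lower median. Pam, which amidates kisspeptin and neurokinin B, was at 1.86 to 3.39 FPKM in Kiss1-high cells and at up to 13.3 FPKM in the other cells. Cpe, which trims basic residues, was at 10.7 FPKM in cell 17 and 165 to 520 FPKM in the remaining 4. Pcsk1n and Scg5 differed by 0.02 or less in median log2(FPKM + 1).

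Of 15 genes that couple these receptors, 13 passed the filter, 1 with a higher and 3 with a lower median; these shares are near the 7.55% and 23.3% of all genes and are no result about the list. When cells 20 and 23 were left out, the counts were 1 and 4, beside 9.61% and 28.1% of all genes. Those of the related peptides (0 and 1) and of the processing genes (0 and 1) were as before. The one higher was Gnai2, an inhibitory G protein subunit, at 40.6 to 109.5 FPKM in Kiss1-high cells and at most 81.3 FPKM in the other cells. The lower ones were Rgs4 and the potassium channel subunits Kcnj3 and Kcnj9, which opioid receptors open through G proteins. Kcnj3 reached 1 FPKM in 1 Kiss1-high cell (cell 20, 5.61 FPKM) and in 11 of the other 18. Kcnj3 and Kcnj9 lie outside the naming rule for this list and are named for their lower medians. Gnai1 and Gnao1, found in all 23 cells, had median differences of -0.47 and 0.25. Gnaq, which Tacr3 and Kiss1r use, was at 18.7, 1.01, 14.5, 3.41 and 17.6 FPKM in cells 8, 17, 19, 20 and 23.

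Transmitter genes varied among Kiss1-high cells. Of 4 genes, 3 passed the filter, 1 with a higher median (Slc17a6) and 2 with a lower one (Gad1 and Gad2). The shares of all genes were 7.55% and 23.3%. Without cells 20 and 23 the counts were 0 and 0, beside 9.61% and 28.1% of all genes. Slc17a6, which encodes VGLUT2, was at 58.1, 7.02, 99.96, 117 and 81.3 FPKM in cells 8, 17, 19, 20 and 23. Gad1, which makes GABA, was at 20.9, 138, 0.282, 0.346 and 0.377 FPKM in these cells, so cells 19, 20 and 23 had less than 1 FPKM. Gad2, which also makes GABA, was at 23.8, 19.2, 4.59, 0.117 and 0.0443 FPKM, highest in cell 8. Slc32a1 was listed at 0 in all 5. Of the 16 other arcuate peptide genes, 10 passed the filter, 2 with a higher median (Oxt and Avp, at 0 in cell 8) and 5 with a lower one, beside 7.55% and 23.3% of all genes. Leaving out cells 20 and 23 gave counts of 3 and 5, beside 9.61% and 28.1%. Oxt and Avp were highest of all in cell 21, which is not Kiss1-high but belongs to set 2, at 3014 and 5186 FPKM. The part of the library set in their higher medians was not tested. Pomc was at 25.6 to 108 FPKM in Kiss1-high cells and at up to 9534 FPKM in the other cells, and Cartpt at 50.3 to 412 and up to 32793 FPKM. Gal was at 579 FPKM in cell 17 and 10.9 to 92.3 FPKM in the remaining 4.

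In the other direction, 6 genes (0.0518%) were lower in every Kiss1-high cell than in any other cell: Cdc37l1, Ddx3y, Isl1, Pfkl, Rnf128 and Ube2d1. Isl1, a transcription factor of arcuate neurons, was at 0.325 to 1.88 FPKM in Kiss1-high cells and at least 3.97 FPKM in the other cells. Ddx3y is Y-linked and was at most 0.866 FPKM in Kiss1-high cells and at least 1.57 FPKM in the other cells. Cells 8, 17 and 19 nonetheless had 82.9, 90.3 and 11.2 FPKM of the 4 Y-linked genes together. Nearly all of each sum came from 1 gene: Eif2s3y (81.9 FPKM) in cell 8, Uty (90.0 FPKM) in cell 17 and Kdm5d (10.3 FPKM) in cell 19. The remaining Y-linked genes were below 1 FPKM in these cells.

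The 250 bases before the starts of Kiss1 and Tac2 are shown because Tac2 was the gene most like Kiss1. They come from RefSeq on GRCm38.p6, plus strand. The Kiss1 window precedes the RefSeq start but lies inside the GENCODE Kiss1 gene, which starts at chr1:133321875. Capitals mark matches, on either strand, to any of 5 motifs: AGGTCA (the core of the oestrogen response element), TGANTCA (AP-1), TATAAA (the TATA box), CCAAT (the CCAAT box) and TGACGTCA (cAMP response element).
Kiss1 (chr1:133326962-133327211): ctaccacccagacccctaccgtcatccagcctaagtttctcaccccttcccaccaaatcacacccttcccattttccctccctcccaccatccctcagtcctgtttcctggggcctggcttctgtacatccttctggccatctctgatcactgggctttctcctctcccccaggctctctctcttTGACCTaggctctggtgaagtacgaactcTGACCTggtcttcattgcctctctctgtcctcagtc
Tac2 (chr10:127724228-127724477): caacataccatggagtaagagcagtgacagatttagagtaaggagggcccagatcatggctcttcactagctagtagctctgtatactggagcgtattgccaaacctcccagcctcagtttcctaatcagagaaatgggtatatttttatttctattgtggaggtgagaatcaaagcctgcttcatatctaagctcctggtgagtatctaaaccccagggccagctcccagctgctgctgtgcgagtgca
Kiss1 held 2 matches to AGGTCA, both on the reverse strand, at bases -65 and -36, and none to the other motifs. At least 1 match to AGGTCA was present in 14.0% of 32851 RefSeq promoters of the same length. Tac2 had no match to any of the 5 motifs in this window. Tacr3 had 1 TATAAA, at base -29, which 12.4% of promoters held. Pdyn had 1 CCAAT in each of its listed promoters, at bases -102 and -8, and 33.8% of promoters held that motif. Matches are letters only and do not show binding.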

How the data were processed

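Per the labels' protocols, papain-dissociated GFP-positive cells were picked by hand and amplified with SmartSeq2. The submitters' processing notes name CASAVA 1.8, TopHat, Cufflinks and the mm10 build; further versions and the annotation are not stated there. The deposited values are FPKM per gene and cell. Of 23896 rows, 12 leftover summary rows (which alone held values below 0), 286 identical copies and 27 date-like names were left out, and rows of 124 symbols were summed, giving 23373 genes. Each member had 1 row. FPKM carries no read totals, so absolute depth is unknown; sums per cell ran from 379230 to 687163. Relative depth is the most frequent ratio, to cell 12, of values below 0.5 FPKM, in log2 bins of 0.02, over genes with loci of 500 bp or longer. SmartSeq2 has no molecular identifiers, so intervals cover counting of cells only. Locus starts count from 0 (for 9299 of 21591 genes the RefSeq start was 1 higher with an equal end) and are printed from 1.

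Cells were counted at 1 FPKM with exact Clopper-Pearson 95% intervals, and logs are log2(FPKM + 1). Cells are not replicates, so no test or p-value was computed. Calculations were tested on simulated data. The members, lists, markers and naming rule (all members, up to 4 genes per list found in the most cells, and the 8 or 4 genes with the highest r) were chosen with earlier results of these data known. 1 gene of the gonadal axis list that the rule names is counted but not reported here. Software was scipy 1.17.1, numpy 2.4.6, pandas 2.3.3 and matplotlib 3.10.9 under Python 3.11.15.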

Additional observations from a re-analysis of the deposited data

How the results depend on the processing

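No paired analysis was possible because the 23 cells form 1 group and no result comes from a test. Of 273 alternative values, 191 stayed within their limits and 82 moved. Limits were the 95% interval of a share and 1.5 times a count. For a median difference the limit was the SD of the member's log2 values over the Kiss1-high cells. That SD is a spread between cells and does not measure the error of the difference. No alternative changed the direction of a difference over 1. Part of the 191 could not move. Each member had 1 row, so taking the highest row of a symbol changed nothing, and Tac1 was listed at 0 in every cell. The number of Kiss1-high cells was 5 at 100 FPKM and after rescaling, and 3 at 1000 FPKM. At 0.1 FPKM, Kiss1, Tac2 and their pairs with each other and with Pdyn reached 100% of cells, and Tacr3, alone or with Kiss1 or Tac2, 52.2%. At 10 FPKM, Kiss1 alone or with Pdyn fell to 39.1%, Tac2 and its pairs with Kiss1 and Pdyn to 26.1%, and Kiss1 with Kiss1r to 0%. At 100 FPKM the shares were 21.7% for Kiss1 alone or with Pdyn, 17.4% for Tac2 and its peptide pairs, 56.5% for Pdyn, 4.35% for Tacr3 and its pairs with Kiss1 and Tac2, and 0% for Kiss1r, Oprk1, Tacr1 and every pair with Kiss1r or Oprk1. At 5% of the highest value, they were 21.7% for Kiss1 alone or with Pdyn, 17.4% for Tac2 and its peptide pairs, 78.3% for Pdyn and 0% for Kiss1 with Kiss1r. With each cell rescaled to 1000000, Tac2 alone and with Pdyn was at 69.6%. In set 2 alone Kiss1 and Tac2 were at 100%, and in set 1 alone Tac2 was at 20%.

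Genes separated above numbered 73 in set 2 alone and 32 without cells 20 and 23, and 6 to 11 with cell 8, 17 or 23 left out (11 without cell 17, 7 without cell 23). Genes separated below numbered 356, 71 and 8 to 25 under the same settings (25 without cell 8, 21 without cell 23). Genes with a median higher by over 1 numbered 1388 at a pseudocount of 0.1 and 275 at 10; those lower by over 1 numbered 928 at 10. Leaving out cells made these separations easier by construction. Of the named genes most like a member, Spearman's rho kept 4 of 8 for Kiss1, 2 of 4 for Pdyn, 1 for Tacr3 and 0 for Oprk1; set 2 alone kept 2 for Kiss1, 1 for Tacr3 and 0 for Tac2, Pdyn and Oprk1; centring within sets kept 2 for Pdyn; leaving out cells 20 and 23 kept 3 for Kiss1, 2 for Tac2, 1 for Pdyn, 0 for Tacr3 and 2 for Oprk1. The cause was not tested. Over its 9 alternatives the median difference ran from 6.88 to 10.65 for Tac2, 1.06 to 3.51 for Pdyn and 1.89 to 8.08 for Tacr3. With unknown absolute depth, a receptor listed at 0 was not detected, which does not show that it is absent.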
